A study of Mus musculus with 4 samples.

Results

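The Serpin family of the mouse was followed here through RNA sequencing of C3H10T1/2 cells with and without 5-AZA. Members were taken by name, as every gene of the mRNA table whose symbol is Serpin followed by a clade letter from a to i and a number, and the values of all transcripts of a gene were added. The pattern found 62 of 21878 genes, with 146 of 75959 transcripts. Clade a held 24 of them, clade b 27, and the other clades (c to i) 11.

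C3H10T1/2 is an established line of mouse embryonic mesenchymal cells, labelled as mesenchymal stem cells, and 5-AZA (5-azacytidine) is a cytidine analog that blocks DNA methyltransferases. The study compared 2 untreated samples, replicates 1 and 2, with 2 samples, replicates 101 and 102, that received 20 μmol/L 5-AZA for 72 hours and then grew for 21 days in fresh medium. The same culture text stands on the untreated samples, whose own time in culture is not stated separately, so the drug and the time in culture cannot be told apart. The design text speaks of 2 groups of untreated cells, while the sample labels give 1. All 4 samples came from 1 cell line. The study calls the 2 samples of a group biological repeats without saying how they were separated, and the p-values measure only the spread between them. Values were FPKM (fragments per kilobase of transcript, scaled to the mapped fragments of the sample), a level per length.

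Serpins are named as serine protease inhibitors. An inhibitory serpin offers an exposed reactive centre loop as bait, and once a protease cuts it the serpin changes its fold and traps the enzyme. Clade a consists mainly of secreted plasma proteins made by the liver, clade b of intracellular proteins that guard cells against granule and lysosomal proteases, and several members inhibit no protease, such as the collagen chaperone Serpinh1. In the mouse, clades a and b have multiplied by tandem duplication.

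The duplications showed in the gene map. A cluster was taken as a run of 3 or more members on 1 chromosome with the next member within 1 Mb, and 50 members fell into 3 such clusters. The cluster on chromosome 12 held 23 members, all of clade a, while those on chromosomes 1 and 13 held 12 and 15 members, all of clade b. The 12 single members were the 11 genes of the other clades and Serpina7. Shortening the distance to 0.2 Mb gave the same clusters.

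Most of the family's RNA came from 4 genes. Serpinh1, Serpinb6a, Serpine2 and Serpinf1 each passed 100 FPKM, and together they held 92.1% and 92.6% of the family's FPKM in untreated replicates 1 and 2 and 93.1% and 93.5% in 5-AZA replicates 101 and 102. The summed family level was 812.5 and 779.4 FPKM in the untreated samples and 922.9 and 985.5 FPKM after 5-AZA, which was 0.236%, 0.233%, 0.281% and 0.273% of all mRNA FPKM. Of the 62 members, 14 reached 1 FPKM in at least 1 sample, 32 stayed below 0.1 FPKM in all 4, and 14 of these were listed at 0 throughout. The 48 members that did not reach 1 FPKM summed to 1.61 and 1.89 FPKM untreated and 3.497 and 4.53 FPKM after 5-AZA.

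The levels differed by clade and by cluster. Clade a made up 0.352% and 0.381% of the family in the untreated samples and 0.159% and 0.249% after 5-AZA, and 1 of its 24 members reached 1 FPKM. Clade b held 34.4% to 35.4% of the family over the 4 samples and 8 of its 27 members reached 1 FPKM. The other clades held 64.5% to 65.2%, with 5 of 11 members at 1 FPKM or more. Within clade b, 6 of 15 members of the chromosome 13 cluster reached 1 FPKM and 2 stayed below 0.1 FPKM in all samples, against 2 and 9 of the 12 members of the chromosome 1 cluster.

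**Figure D1:**
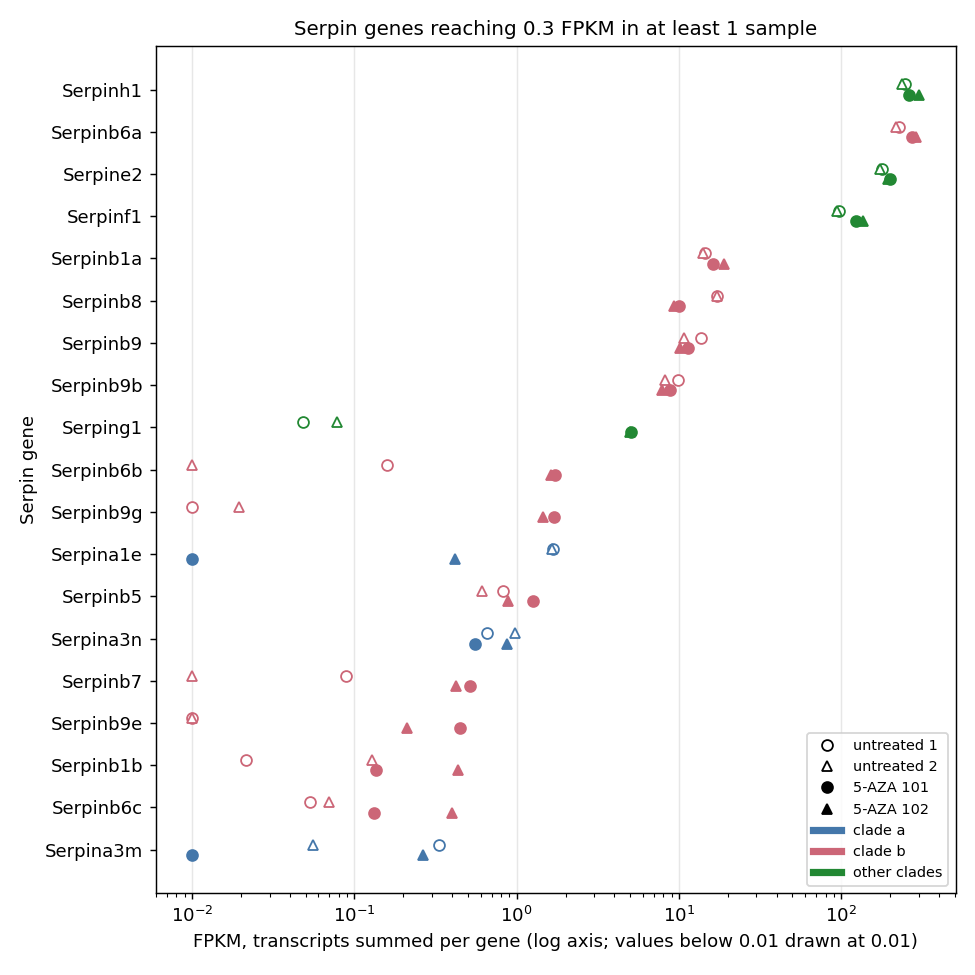
FPKM of the Serpin genes that reached 0.3 FPKM and are reported here, on a log axis, with 1 point for each of the 2 untreated (open) and 2 5-AZA (filled) samples, coloured by clade, and values below 0.01 FPKM drawn at 0.01. Serpinh1, Serpinb6a, Serpine2 and Serpinf1 lie near or above 100 FPKM in all 4 samples, and the points of Serping1, Serpinb9g and Serpinb6b lie far apart between the groups.

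The samples also differed outside the family. The mesenchymal genes Col1a1, Col1a2, Vim and Pdgfra were present in all 4 samples, whereas Nt5e was at 0 in both untreated samples and at most 0.154 FPKM after 5-AZA. Of the 8 mesenchymal genes tested, 4 rose (Thy1, Pdgfra, Ly6a and Eng, with Thy1 called) and 3 fell (Vim, Col1a1 and Col1a2) at an adjusted p under 0.05 (limma), and the list's sum of 3238 and 3297 FPKM untreated and 2084 and 2332 FPKM after 5-AZA was mostly Vim. The 8 skeletal muscle markers summed to 1.44 and 1.01 FPKM untreated and 721 and 1117 FPKM after 5-AZA, with 8 of 8 called higher, and the 6 adipocyte markers to 45.3 and 30.1 against 1094 and 1504 FPKM, with 5 of 6 called higher. The 8 interferon response genes summed to 28.4 and 22.6 against 281.6 and 258.7 FPKM, and all 7 that could be tested were called higher. The part of these cell types and programs in the Serpin results was not tested, and in bulk RNA fewer cells of a type and less RNA per cell cannot be told apart.

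Differences between the groups were tested with limma on log2(FPKM + 0.1) over the 13199 genes with a mean of at least 0.1 FPKM. A gene was called at an adjusted p under 0.05 and a change over 2-fold. The added 0.1 FPKM shrinks the change of genes with low values. Of the 62 Serpin genes, 24 could be tested. Of these, 5 were called higher after 5-AZA, 20.8% of those tested, where 13.1% of all genes tested were called higher, and 1 was called lower, 4.17% against 1.32%. All 5 genes called higher had an untreated mean under 0.1 FPKM and so entered the test through their 5-AZA samples, and the share of members called gives no evidence about the family. The median change of the 24 members was 0.39 on the log2 scale, beside 0.05 over all genes tested. After quantile normalization these were -0.20 and -0.12. The same 5 genes are part of this median, so it gives no evidence about the family either.

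**Figure D2:**
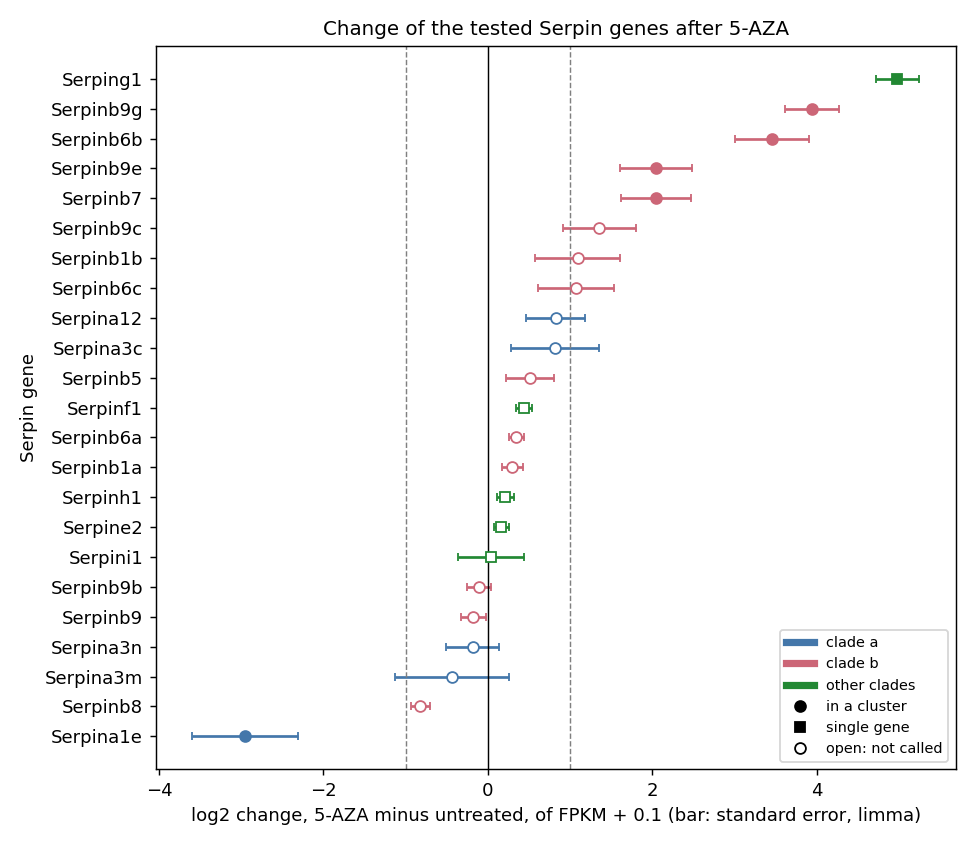
Difference of the group means on the log2(FPKM + 0.1) scale, 5-AZA minus untreated, for the Serpin genes tested and reported here, with bars of 1 standard error, coloured by clade, round for genes in a cluster and square for single genes, filled where called, and dashed lines at a 2-fold change. Serping1 stands highest at 4.98 and Serpina1e lowest at -2.95.

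Among the secreted inhibitors outside clades a and b, Serping1 showed the widest difference of the family. Serping1 encodes the C1 inhibitor, which blocks C1r and C1s of the complement cascade and plasma kallikrein. Its level was 0.0482 and 0.0784 FPKM in the untreated samples and 5.08 and 5.01 FPKM after 5-AZA. Both treated samples lay far above both untreated samples and close to each other. Serping1 rose by 4.98 (standard error, SE, 0.26) on the log2(FPKM + 0.1) scale (limma, adjusted p = 4.18e-06), and it was called under each of 11 other settings of the fit.

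There were 2 transcripts listed for Serping1, and their split did not repeat between the treated samples. NM_009776.3 held 21.3% of the gene in 5-AZA replicate 101 and 79.5% in replicate 102, at 1.08 and 3.98 FPKM. XM_006498623.3 held 78.7% and 20.5%, at 4.003 and 1.03 FPKM. The sum of the 2 transcripts was nearly equal in both replicates while the share of each nearly swapped, and neither transcript passed the test on its own (limma, adjusted p = 0.0674 and 0.0743).

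Serpinf1 encodes PEDF, a secreted factor that blocks blood vessel growth and inhibits no protease. Its level was 97.1 and 93.6 FPKM untreated and 123 and 135 FPKM after 5-AZA, with no overlap between the groups. Serpinf1 rose by 0.44 (SE 0.10) on the log2 scale (limma, adjusted p = 0.0108), a ratio of 1.36, which is under the 2-fold limit. The adjusted p reached 0.0634 to 0.109 when any 1 sample was left out.

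Serpine2 (protease nexin-1), which blocks thrombin and urokinase, had 178 and 174 FPKM untreated and 199.8 and 194 FPKM after 5-AZA. Both treated samples were above both untreated ones, but the difference of 0.16 (SE 0.09) on the log2 scale did not pass the test (limma, adjusted p = 0.244), which does not show that the levels were equal.

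Serpinh1 (Hsp47) binds procollagen in the endoplasmic reticulum and was the most abundant member in untreated cells. Its level was 248 and 237 FPKM untreated and 262 and 302 FPKM after 5-AZA. Both treated samples were higher, but the difference of 0.21 (SE 0.11) on the log2 scale did not pass the test (limma, adjusted p = 0.189). Of its 6 transcripts, NM_001111044.1 held 84.9% to 87.8% of the gene in all 4 samples.

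Clade b, with 13 of the 24 members tested, held 4 of the 5 genes called higher. Of the 4, 3 were in the chromosome 13 cluster, where 10 members were tested. These were 30.8% and 30.0% of those tested, beside 13.1% of all genes tested. All 4 entered the test through their 5-AZA samples, so these shares give no evidence about the clade or the cluster. Serpinb9g, one of the mouse duplicates of the granzyme B inhibitor Serpinb9, had 0 and 0.0193 FPKM untreated and 1.71 and 1.46 FPKM after 5-AZA. The untreated samples were at or near 0 and both treated samples were above 1 FPKM. Serpinb9g rose by 3.94 (SE 0.33) on the log2(FPKM + 0.1) scale (limma, adjusted p = 4.49e-05) and was called under each of 10 other settings.

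Serpinb9e, a close duplicate of Serpinb9g, was listed at 1.98e-84 and 4.48e-41 FPKM untreated, in effect 0, and at 0.450 and 0.211 FPKM after 5-AZA. Serpinb9e rose by 2.05 (SE 0.44) on that scale (limma, adjusted p = 0.00917), but was not called with quantile normalization (adjusted p = 0.241), with a pseudocount of 1 FPKM or without the limit on low values. Serpinb9f, a further duplicate, was below the limit of the test, with 0.00348 FPKM in 5-AZA replicate 101 and 0.295 FPKM in replicate 102. These 3 genes are close duplicates, so their reads may have been split between them. Their sum, an analysis chosen after the values were seen, was 0.0193 FPKM or less in the untreated samples and 2.16 and 1.97 FPKM after 5-AZA, and rose by 4.31 (SE 0.31, limma, adjusted p = 2.09e-05).

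Serpinb6b, a mouse duplicate of Serpinb6a, had 0.158 and 1.47e-29 FPKM untreated and 1.72 and 1.62 FPKM after 5-AZA. Both treated samples lay well above the higher untreated one. Serpinb6b rose by 3.46 (SE 0.45) on the log2(FPKM + 0.1) scale (limma, adjusted p = 0.000616). Without 5-AZA replicate 101 its adjusted p was 0.144, without replicate 102 it was 0.1496, and without the limit on low values it was 0.0699.

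The promoters of these genes are shown because the genes rose from near 0, because CG dinucleotides are where DNA is methylated, and because 2 of the windows are nearly the same. Each line gives 250 bases before to 50 after the gene start from RefSeq (GRCm38.p6), 5′ to 3′ on the gene's strand, with CG dinucleotides in capitals. Serpinb7, called higher on chromosome 1, and Serpinb6a, expressed in all samples, are set beside them.
Serpinb9g, chr13:33484540-33484839, plus strand: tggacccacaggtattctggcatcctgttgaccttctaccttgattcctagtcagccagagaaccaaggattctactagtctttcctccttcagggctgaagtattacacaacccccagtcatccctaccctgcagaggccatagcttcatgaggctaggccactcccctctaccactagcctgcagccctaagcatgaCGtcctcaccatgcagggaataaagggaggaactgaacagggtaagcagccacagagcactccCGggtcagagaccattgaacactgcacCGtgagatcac
Serpinb9e, chr13:33249358-33249657, plus strand: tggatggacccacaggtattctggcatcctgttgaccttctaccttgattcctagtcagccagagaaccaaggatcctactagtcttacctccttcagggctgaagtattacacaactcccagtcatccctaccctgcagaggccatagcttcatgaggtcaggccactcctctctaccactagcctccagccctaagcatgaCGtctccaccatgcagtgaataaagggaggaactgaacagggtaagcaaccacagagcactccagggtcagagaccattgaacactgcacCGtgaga
Serpinb6b, chr13:32965011-32965310, plus strand: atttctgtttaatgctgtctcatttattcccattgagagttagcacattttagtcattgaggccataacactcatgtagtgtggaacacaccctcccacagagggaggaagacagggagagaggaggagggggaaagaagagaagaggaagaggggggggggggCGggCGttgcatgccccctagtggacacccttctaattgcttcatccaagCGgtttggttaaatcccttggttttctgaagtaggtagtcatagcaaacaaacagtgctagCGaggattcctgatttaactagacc
Serpinb7, chr1:107422439-107422738, plus strand: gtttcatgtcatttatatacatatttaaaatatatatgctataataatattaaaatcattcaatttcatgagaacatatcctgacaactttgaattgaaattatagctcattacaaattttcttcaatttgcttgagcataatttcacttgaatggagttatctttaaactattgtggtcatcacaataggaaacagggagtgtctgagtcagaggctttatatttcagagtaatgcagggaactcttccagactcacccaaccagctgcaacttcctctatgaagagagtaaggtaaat
Serpinb6a, chr13:34002745-34003044, minus strand: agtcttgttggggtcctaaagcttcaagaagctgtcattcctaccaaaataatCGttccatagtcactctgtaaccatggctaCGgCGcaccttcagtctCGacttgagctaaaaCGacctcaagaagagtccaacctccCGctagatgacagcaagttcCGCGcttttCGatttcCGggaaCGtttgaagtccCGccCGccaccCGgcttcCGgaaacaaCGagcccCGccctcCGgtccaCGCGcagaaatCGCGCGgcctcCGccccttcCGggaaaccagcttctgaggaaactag

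The promoters of Serpinb9e and Serpinb9g shared 284 of 296 aligned bases (95.9%), and those of Serpinb9e and Serpinb9f 99.3% of 285. Serpinb9g held 3 CG dinucleotides, Serpinb9e 2, Serpinb6b 4 and Serpinb7 none, while Serpinb6a held 25. In the cluster of Serpinb6a, Serpinb9b and Serpinb9 were also expressed in all samples and not called, and they held 2 and 5. CG reads the same on both strands, and its median count was 7 over the 27025 genes with a promoter entry. No methylation was measured in these samples.

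A promoter was listed for 53 of the 62 Serpin genes, and not for Serping1. The median CG count was 4 in clade a (19 genes), 2 in clade b (25 genes) and 6 in the other clades (9 genes). Windows with 10 or more CG dinucleotides made up 43.9% of all genes, and they were found in 1 of 19 genes of clade a, 2 of 25 of clade b and 3 of 9 of the other clades. Serpine2 with 41, Serpinb6a with 25 and Serpinh1 with 16 were among the 4 members above 100 FPKM, whereas Serpinf1, the other one, had 3. These counts describe the windows, and whether they bear on the levels was not tested.

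**Figure D3:**
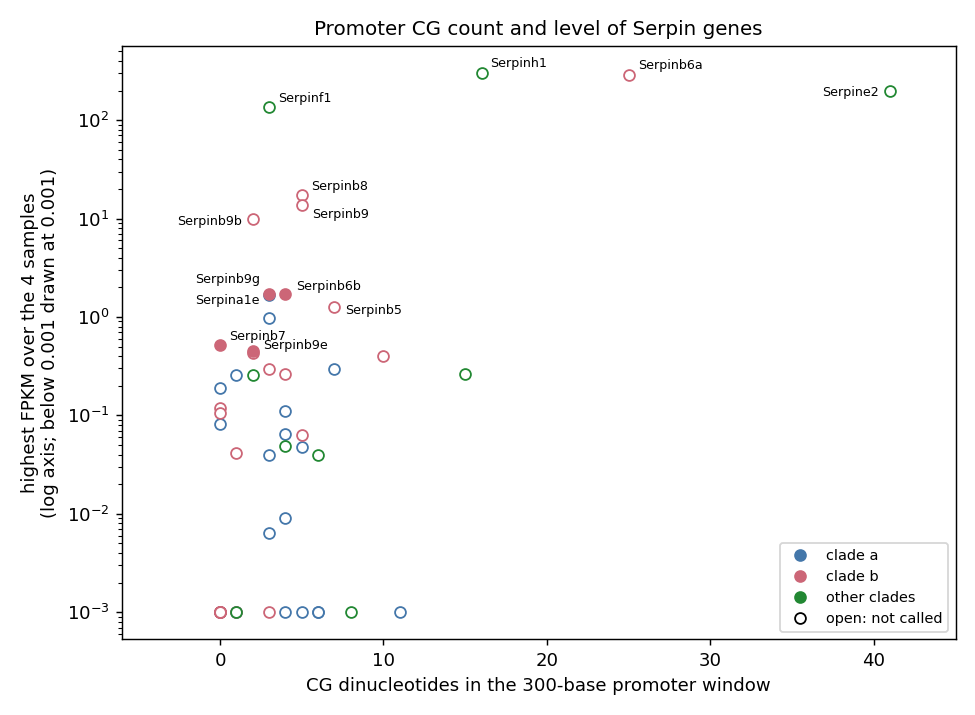
CG dinucleotides in the 300-base promoter window against the highest FPKM of each Serpin gene over the 4 samples, on a log axis, with filled points for genes called higher or lower. Of the 4 genes above 100 FPKM, 3 have 16 or more CG dinucleotides, while the called genes shown have 4 or fewer. Fewer than 5 is common in the family, with 31 of 42 members below 1 FPKM and 5 of 11 reaching it. Serping1, without a promoter entry, is not shown.

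Further letter patterns were searched in the same windows. The muscle-type E-box CAGCTG, which reads the same on both strands, was in 16.1% of all promoters and in 6 of 53 Serpin promoters, among them Serpinb7 and Serpinb8. The interferon gamma-activated pattern TTCNNNGAA, likewise the same on both strands, was in 8.47% of all promoters and in 8 of 53, with 2 matches in Serpinb6a. Neither pattern was found in the windows of Serpinb9g, Serpinb9e or Serpinb6b. CAGCTG holds no CG, whereas TTCNNNGAA can overlap one, and a match is only a description of the sequence.

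Serpinb7 (megsin), known from kidney mesangium and skin, was the remaining gene called higher and lies in the chromosome 1 cluster. Its level was 0.0885 and 0 FPKM untreated and 0.518 and 0.422 FPKM after 5-AZA, without overlap. Serpinb7 rose by 2.05 (SE 0.42) on the log2(FPKM + 0.1) scale (limma, adjusted p = 0.00806). The call was lost in 5 of 10 other settings, with adjusted p of 0.172 without 5-AZA replicate 101, 0.161 without replicate 102 and 0.207 after quantile normalization. The 7 keratinocyte and epithelial markers summed to 1.34 and 1.15 FPKM untreated and 21.6 and 27.5 FPKM after 5-AZA, nearly all of it Krt8 and Trp63. Of the 5 tested, Krt8, Trp63 and Epcam were called higher, Cdh1 had 0.4995 and 0.497 against 0.157 and 0.367 FPKM without passing the test, and Krt5 and Dsp stayed below 0.1 FPKM. Epcam was below 0.1 FPKM in the untreated samples and entered the test through its 5-AZA samples. Over all genes tested, 13.1% were called higher. The part of these markers in the Serpinb7 result was not tested.

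Serpinb8, an intracellular inhibitor of furin-type proteases, was the highest member of the chromosome 1 cluster and went the other way. Its level was 17.2 and 17.0 FPKM untreated and 9.99 and 9.37 FPKM after 5-AZA. The groups were well apart and the samples within each were close. Serpinb8 fell by 0.82 on the log2 scale (SE 0.12, limma, adjusted p = 0.00108), a ratio of 1.77, under the 2-fold limit, and its 4 transcripts all had negative differences, from -0.71 to -1.48, without passing the test singly. Without 5-AZA replicate 102 the adjusted p of the gene was 0.0528.

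Serpinb6a, an abundant cytoplasmic serpin that inhibits cathepsin G, had 226 and 217 FPKM untreated and 274 and 290.2 FPKM after 5-AZA. It rose by 0.35 (SE 0.09) on the log2 scale (limma, adjusted p = 0.0279), a ratio of 1.27, and the adjusted p was 0.0906 to 0.254 when any 1 sample was left out and 0.0507 after median centring. One of its 8 transcripts, NM_009254.3, held 95.3% to 96.5% of the gene in every sample. At an adjusted p under 0.05 (limma) and any size of change, 7 of the 24 members rose (29.2%, beside 18.6% of all genes tested). On the same terms 2 fell (8.33%, beside 5.93%). The 7 include the 5 genes called higher, which entered the test through their 5-AZA samples, so this share gives no evidence about the family.

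The other expressed genes of clade b did not pass the test. Serpinb9 itself had 13.7 and 10.7 FPKM untreated and 11.3 and 10.1 FPKM after 5-AZA (log2 difference -0.18, SE 0.15, limma, adjusted p = 0.450), and its duplicate Serpinb9b had 9.87 and 8.17 against 8.84 and 7.88 FPKM (-0.10, SE 0.15, adjusted p = 0.672). Both genes overlapped between the groups. Serpinb5 (maspin), an epithelial member without protease inhibition, had 0.822 and 0.610 against 1.26 and 0.878 FPKM (0.51, SE 0.29, limma, adjusted p = 0.254), and its difference was -0.36 after quantile normalization. Among the lower genes of the chromosome 13 cluster, Serpinb9c, Serpinb1b and Serpinb6c had differences of 1.36, 1.09 and 1.07, and none passed the test (limma, adjusted p = 0.0576, 0.170 and 0.135).

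Serpinb1a, an inhibitor of neutrophil elastase, had 14.4 and 14.0 FPKM untreated and 16.1 and 19.0 FPKM after 5-AZA (log2 difference 0.30, SE 0.12, limma, adjusted p = 0.12). Its 2 transcripts had unlike values. NM_025429.2 had 13.1 and 13.3 FPKM untreated and 12.5 and 11.9 FPKM after 5-AZA. XM_006516724.1 had 1.33 and 0.622 against 3.57 and 7.12 FPKM, and its share of the gene was 9.26% and 4.46% untreated and 22.2% and 37.4% after 5-AZA. The difference of 2.34 (SE 0.50) on the log2 scale did not pass the test (limma, adjusted p = 0.0936).

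**Figure D4:**
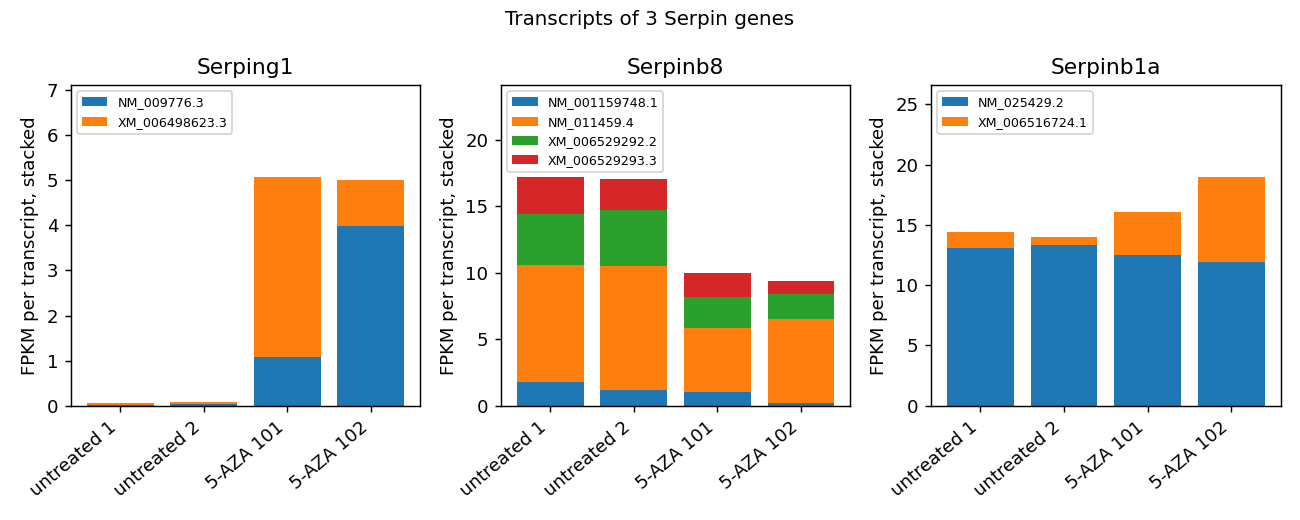
Stacked FPKM of the transcripts of Serping1, Serpinb8 and Serpinb1a in each of the 2 untreated and 2 5-AZA samples, with 1 colour per transcript. In Serping1 the 2 transcripts swap places between the 5-AZA samples, and in Serpinb1a the XM_006516724.1 transcript is higher in both 5-AZA samples.

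Over all member transcripts, 41 could be tested and 2 were called higher, NM_011455.3 of Serpinb9g (adjusted p = 0.0366) and NM_011454.1 of Serpinb6b (limma, adjusted p = 0.0439), where 2.1% of 35557 transcripts were called higher and 0.262% lower. Both transcripts were below 0.1 FPKM in the untreated samples and so entered the test through their 5-AZA samples. The number called therefore gives no evidence about the family. NM_011454.1 held 97.1% and 96.9% of Serpinb6b in the 5-AZA samples.

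In clade a, Serpina1e was called lower. Serpina1e is one of the mouse genes for α1-antitrypsin, the plasma inhibitor of neutrophil elastase. Its level was 1.67 and 1.64 FPKM untreated and 3.55e-06 and 0.415 FPKM after 5-AZA. The untreated samples were nearly equal, the treated samples were far apart, and both lay below. Serpina1e fell by 2.95 on the log2(FPKM + 0.1) scale (SE 0.64, limma, adjusted p = 0.0103). Without 5-AZA replicate 101 the difference was -1.77 (adjusted p = 0.0516), and the call was also lost with a pseudocount of 0.01 FPKM, without the limit on low values and without the trend in the variance.

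Serpina1a to Serpina1e are close duplicates, so their reads may have been split, and the promoters of Serpina1a to Serpina1d matched that of Serpina1e at 95.2% to 98.4% of aligned bases. Their sum, chosen after the values were seen, was 1.67 and 1.64 FPKM untreated and 0.0630 and 0.415 FPKM after 5-AZA and fell by 2.60 (SE 0.49, limma, adjusted p = 0.00496). The hepatocyte markers Ttr, Apoa1, Apoa2, Fgb and Fga were listed at 0, and the 8 measured hepatocyte markers summed to 0.0293 and 0.00196 FPKM untreated and 0.382 and 0.223 FPKM after 5-AZA. Ahsg, the 1 marker of these that could be tested, had 0.0293 and 0 FPKM untreated and 0.256 and 0.207 FPKM after 5-AZA. It was called higher (limma, adjusted p = 0.0246), having entered the test through its 5-AZA samples. Of the other clade a genes, 4 could be tested and none was called, with Serpina3n, an acute-phase inhibitor, at 0.661 and 0.976 against 0.555 and 0.873 FPKM.

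Set side by side, the clustered members gave 4 genes called higher (22.2%) and 1 lower (5.56%) among 18 tested of 50. The single members gave 1 higher (16.7%) and none lower among 6 tested of 12. Over all genes tested, 13.1% were called higher and 1.32% lower. All genes called higher here entered the test through their 5-AZA samples, so these shares give no evidence about clustered or single genes. On chromosome 1, where 3 of 12 members were tested, Serpinb7 rose and Serpinb8 fell by less than 2-fold. Serpinb7 passed the limit through its 5-AZA samples, so no direction is drawn for the cluster. Medians over clades or clusters are not given as results, because the genes called higher passed the limit through the 5-AZA samples and several of these medians changed sign with the settings of the fit.

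Genes of the systems that serpins act on were read from the same fit. Of 69 listed proteases and partners, 67 were in the table, 42 could be tested, 11 were called higher and none lower. Over all genes tested, 13.1% were called higher and 1.32% lower. At an adjusted p under 0.05 (limma) of any size, 20 of the 42 were higher and 3 lower, beside 18.6% and 5.93% of all genes. Some called genes, such as F2rl1 and Ctss, were at 0 in both untreated samples and entered the test through their 5-AZA samples. The shares called, also those of the single lists below, therefore give no evidence about these systems. In the plasminogen system, in which Serpine2 acts, 1 of 7 was called higher. Plau (urokinase) had 7.60 and 6.58 FPKM untreated and 15.8 and 16.7 FPKM after 5-AZA and rose by 1.19 (SE 0.13, limma, adjusted p = 0.000244), while Plat had a difference of 0.34 (adjusted p = 0.205). In coagulation, 3 of 7 were called higher, among them Thbd (thrombomodulin), from 6.53 and 5.01 to 27.1 and 21.5 FPKM.

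For Serping1, the C1 proteases were the nearest partners. C1s1 had 29.5 and 28.8 FPKM untreated and 57.7 and 51.8 FPKM after 5-AZA and rose by 0.90 (SE 0.10, limma, adjusted p = 0.000276), and C1ra rose by 0.43 (SE 0.12, adjusted p = 0.0328), both under 2-fold, so that none of 5 complement and kinin genes tested was called. Of the cathepsins and the caspase, 4 of 7 were called higher, with Ctsk (cathepsin K) from 0.0954 and 0.456 to 19.2 and 25.5 FPKM and Casp1 (caspase-1) from 0.0243 and 0.0742 to 4.92 and 6.23 FPKM. Of the other serine proteases 3 of 4 were called higher, with Htra1 from 3.08 and 2.85 to 20.1 and 27.6 FPKM.

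The granule proteases that clade b serpins are known to block were nearly absent. None of 5 neutrophil and mast cell proteases and none of 4 cytotoxic granule genes reached the limit of the test, and the 4 granule genes summed to 0 FPKM in both untreated samples and 0.0487 and 0.0253 FPKM after 5-AZA. The 8 myeloid markers summed to 4.52 and 5.79 FPKM untreated and 6.38 and 8.44 FPKM after 5-AZA. Of the 3 tested, Cd68 was called higher (1.16 and 1.47 against 2.27 and 3.69 FPKM, limma, adjusted p = 0.0191), 5 markers were below 0.1 FPKM in all samples, and Adgre1 and Tyrobp were listed at 0. Of 12 collagen folding genes measured with Serpinh1, none was called, and the median log2 difference was -0.01. At an adjusted p under 0.05 (limma) and under 2-fold, P4ha1 rose by 0.72 and Plod2 by 0.37, while P4ha3 fell by 0.98, P3h1 by 0.75 and Fkbp10 by 0.45.

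At the Serpin loci, 45 lncRNAs overlapped 18 member genes, and 36 of them were below 0.1 FPKM in all samples. Beside the transcript at Serpinh1 that is described further on, 3 reached 1 FPKM in a sample. The lncRNA NONMMUT016946.2 at Serpinb6a had 7.06 and 6.53 FPKM untreated and 6.19 and 3.94 FPKM after 5-AZA, where Serpinb6a itself was higher after 5-AZA. NONMMUT002252.2, a single-exon transcript on the strand of Serpinb8, had 2.16 and 1.96 FPKM untreated and 0.941 and 1.44 FPKM after 5-AZA, lower in both treated samples like Serpinb8. NONMMUT001652.2 at Serpine2 had 1.37 and 1.33 against 0.979 and 1.45 FPKM, with overlap. These lncRNAs were not tested, and reads on a shared strand cannot be told apart from those of the mRNA. The circRNA table held 1 circRNA from a member among 4295, a Serpine2 circle of 707 bases. Its level was 0.0538 and 0 RPM untreated and 0.0215 and 0 RPM after 5-AZA. The smallest value above 0 was 0.0215 RPM in untreated replicate 1 and in 5-AZA replicate 101. With 0 in 1 sample of each group and levels this low, the groups could not be told apart.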

How the data were processed

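RNA was measured in 2 untreated and 2 5-AZA samples of C3H10T1/2, with groups taken from the sample labels. The authors removed ribosomal RNA, made stranded libraries and deposited FPKM per transcript for mRNAs and lncRNAs and RPM of back-splice reads for circRNAs. The submitters' processing notes name Trimmomatic, HISAT2, Bowtie2 2.2.9, eXpress 1.5.1 and mm9. The circRNA host positions lay within the GRCm38 gene for 3609 of 4185 transcripts (86.2%), so gene neighbours, overlaps and promoters were taken from RefSeq GRCm38.p6. FPKM values of near-identical genes are estimates, since eXpress shares ambiguous reads among transcripts. Read depth was not given in the sources used here, and FPKM sums were 328410 to 361664 per sample, with 10298 to 11124 genes at 1 FPKM or more.

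Transcripts were summed per gene. Genes with a mean of at least 0.1 FPKM were tested with limma 3.58.1 (lmFit, eBayes with trend) in R 4.3.3 on log2(FPKM + 0.1), with Benjamini-Hochberg adjustment over all genes tested, and called at an adjusted p under 0.05 and over 2-fold. FPKM is no count, so no count model was run. The smallest two-sided exact permutation p for 2 against 2 samples is 0.333. Named members are those that reached 1 FPKM or were called, and Serpinb9f, Serpinb9c, Serpinb1b, Serpinb6c and Serpina3n were added after their values were seen. Listed proteases were named as examples if called or at 10 FPKM. The values of 1 member are not reported here. The members and lists were chosen with earlier results of these data known. The fit was tested on simulated data in which changes were planted only in genes above 1 FPKM untreated. Recovery was thus not checked for genes as low as the Serpin genes called higher, whose untreated means were under 0.1 FPKM.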

Additional observations from a re-analysis of the deposited data

Results flagged for a closer look

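The lncRNA TCONS_00018464 was flagged by a rule on the lncRNAs at the Serpin loci, which the mRNA comparison does not use. The rule asked for 1 FPKM in a sample and for both 5-AZA samples above both untreated samples. TCONS_00018464 is 667 bases long with 2 exons and overlaps Serpinh1 on the same strand. Its level was 712 and 695 FPKM in the untreated samples and 816 and 753 FPKM after 5-AZA, above the summed Serpinh1 mRNA in each sample. That both treated samples were above both untreated ones was what the rule asked for and is no further result. Reads of a transcript on the same strand as Serpinh1 cannot be told apart from those of its mRNA where the 2 overlap, and the difference was not tested.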

How the results depend on the processing

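Of 346 alternative values, 250 stayed within their limit (the same sign and call for a gene, 1.5 times for a count, the spread between replicates for a median), 56 were weaker, 7 stronger, 31 medians moved and 2 genes reversed. Of 61 alternative medians over the family, its clades and clusters, 12 had the other sign than the main value, among them the family (-0.20) and the clustered genes (-0.25) after quantile normalization, clade b (-0.10) with a mean of at least 1 FPKM, and clade a without either untreated sample or 5-AZA replicate 101 (0.07 to 0.49). The reversed genes were Serpinb5 after quantile normalization (-0.36) and, without untreated replicate 1, Serpinb9b, which ran from -0.24 to 0.0302 with 1 sample left out. Serpin genes called were 6, and 2 without the limit on low values and 1 with a mean of at least 1 FPKM. Those called higher were 5, and 3 with a pseudocount of 1 FPKM, 2 without the limit, 1 with a mean of at least 1 FPKM, 3 after quantile normalization, and 3 to 5 with 1 sample left out, the lowest without 5-AZA replicate 102. Those called lower were 1, and 0 with a pseudocount of 0.01 FPKM, without the limit, with a mean of at least 1 FPKM and without the trend, 2 after quantile normalization, and 0 to 1 with 1 sample left out, 0 without 5-AZA replicate 101. Transcripts called were 2, and 0 without the limit, 1 after quantile normalization and 0 to 0 with any 1 sample left out. Proteases and partners called higher were 11, and 6 with a pseudocount of 1 FPKM, 7 with a mean of at least 1 FPKM, 7 after quantile normalization and 5 to 11 with 1 sample left out (5 without 5-AZA replicate 101, 6 without 102). Those called lower were 0, and 1 with a pseudocount of 0.01 FPKM, 1 after median centring, 2 after quantile normalization and 0 to 1 with 1 sample left out. Clade a genes called were 1, and 0 with a mean of at least 1 FPKM, 2 after quantile normalization and 0 to 1 with 1 sample left out. Clade b genes called were 4, and 2 with a pseudocount of 1 FPKM, 0 with a mean of at least 1 FPKM, 2 after quantile normalization and 2 to 4 with 1 sample left out. Clustered genes called were 5, and 3 with a pseudocount of 1 FPKM, 0 with a mean of at least 1 FPKM and 3 to 5 with 1 sample left out. A higher limit leaves fewer genes to test, and of the other changes the cause was not tested. Over all genes, 1724 were called higher and 174 lower, against 1041 and 886 after quantile normalization, 875 and 86 with a pseudocount of 1 FPKM, 1179 and 83 without the limit, 845 and 122 with a mean of at least 1 FPKM, and 1602 and 252 after median centring. With any 1 sample left out, fewer genes and fewer transcripts were also called higher over all those tested. Without the limit, no transcript was called over all those tested. When a sample is left out, the lone sample of its group is assumed to vary like the other group. No paired analysis was possible because the groups share no replicate number. No read counts were used, so the counting error of genes near 0.1 FPKM is unknown.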
